A study of Homo sapiens with 24 samples.

Results

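The 2 lines compared here were MCF-10A, an immortalised and non-tumorigenic human mammary epithelial cell line labelled wild-type, and the same line carrying MYC-ER, a fusion of the transcription factor MYC with a hormone-binding part of the oestrogen receptor. In such a fusion the receptor part holds MYC inactive until 4-hydroxytamoxifen (4-OHT), an oestrogen receptor ligand, is added. Only libraries from cells that had received no 4-OHT were taken, the 0 h groups, so the comparison asks how the lines differ before the fusion is switched on. It comprised 6 of the 24 RNA-seq libraries of the series, 3 per line, and every gene in the table: of 60668 rows, 22158 had enough counts in the 24 libraries to be tested. Both lines were grown as 3-dimensional cultures on growth-factor-reduced Matrigel, a basement membrane gel, and all wells were collected on day 5, also those given 4-OHT at 1 µM for 8, 24 or 48 h. The labels name no vehicle for the 0 h wells, and do not state whether the MYC-ER line is 1 clone or a pool, which promoter drives the fusion, from which species its receptor part comes, or how long the lines were kept apart. The fusion, the history of the lines and anything else that separates them cannot be told apart in this contrast. Replicates are separate wells as far as the labels say, so p-values measure only the spread between these samples, which may be technical.

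As background, MCF-10A cells have basal mammary features, depend on epidermal growth factor (EGF) and form hollow spheres, or acini, in Matrigel. Their proliferation is driven through the EGF receptor and the kinase ERK, and falls away as acini mature and the cells leave the cell cycle. When growth factor signalling through AKT is low, FOXO transcription factors enter the nucleus and switch on genes of growth arrest, autophagy and cell death. The genes of DNA replication and mitosis are repressed together in resting cells by the DREAM complex and the RB family, which act at E2F and CHR elements of their promoters.

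The 6 libraries held between 168119848 and 182438505 counts each. Within a line their values correlated across genes with a Spearman coefficient of 0.983 to 0.991, and between lines with 0.934 to 0.947. The parental wells were the more variable group: pairs of parental libraries differed 159 to 261 times more than counting error alone (chi-square divided by degrees of freedom), and MYC-ER pairs 15.6 to 19.7 times. In both lines these within-group deviations moved with the GC content of the transcripts, with rank correlations of 0.581, -0.687 and 0.534 in the parental libraries and 0.326, -0.52 and 0.244 in the MYC-ER ones. Mitochondrial transcripts took 9.54% ± 0.26 (SD, n = 3) of the MYC-ER counts and 6.06% ± 1.91 (SD, n = 3) of the parental ones, with parental replicate 1 at 3.86%.

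Most of the measured transcriptome differed between the untreated lines. Of 22158 genes tested, 14244 (64.3%) passed an adjusted p of 0.05 in edgeR's quasi-likelihood test with Benjamini-Hochberg adjustment, 6995 of them (31.6%) higher and 7249 (32.7%) lower in MYC-ER. Without adjustment, 14873 genes (67.1%) had a p under 0.05. A difference of at least 2-fold was called for 6329 genes (28.6%), of which 3001 (13.5%) were higher and 3328 (15%) lower. The 3 values of one line did not overlap the 3 of the other for 14405 genes (65%). For 10526 genes (47.5%) the MYC-ER values also lay outside the range of all 12 parental libraries, 4-OHT-treated ones included.

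The sizes were unequal between directions. Among the 14143 genes that reached 1 CPM (counts scaled by TMM to library size) in the higher line and had a count in all 6 libraries, 5607 were called higher and 5718 lower. At 8-fold or more, 179 were higher and 387 lower, and at 32-fold or more 26 were higher and 123 lower. Of 15012 protein-coding genes 11219 (74.7%) were called, and 46.8% of those calls were higher in MYC-ER. Of 1657 long intergenic RNAs 46.5% were called, and of 1731 antisense RNAs 42%, with 56.2% and 59.7% of these calls higher. The libraries were made stranded, but whether the counting used strand is not given in the sources used here, so an antisense RNA and its partner gene may share reads. The share called depended on level: 36.2% of the genes below 1 CPM, 73.8% of those between 1 and 10 CPM and 81.6% of those between 10 and 100 CPM. Counts of called genes in a group of well-expressed genes are therefore read below against its median as well as against 64.3%. Over all genes tested 31.6% were higher and 32.7% lower, the shares to set beside each list below. Between 10 and 100 CPM 3081 genes were higher and 3215 lower of 7712, so many calls in both directions are common among expressed genes.

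**Figure D1:**
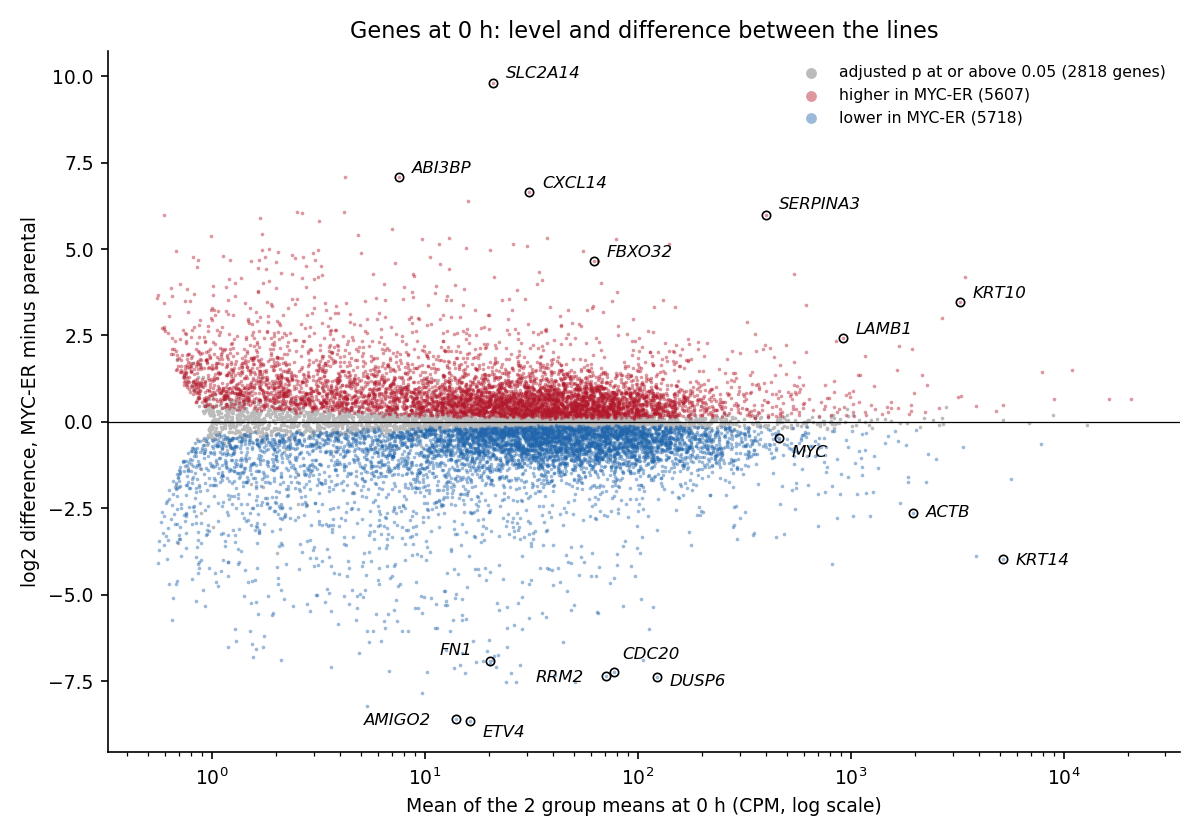
Log2 difference (MYC-ER minus parental, 0 h, y axis) against the mean of both group means in CPM (log x axis) for the 14143 genes with at least 1 CPM in the higher line and a count in all 6 libraries, red where called higher, blue where called lower, grey where not called, with some genes named. Called genes lie on both sides at every level, and the points farthest from 0 are mostly below it (123 at 32-fold or more lower against 26 higher).

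MYC itself was measured first, because reads from the fusion transcript can count towards it. MYC read 394, 378 and 388 CPM in MYC-ER cells and 462, 535 and 599 CPM in parental cells. All 3 MYC-ER values lay below the parental ones (log2 difference -0.46, SE 0.07, adjusted p 3.35e-06), and with GC content and length modelled in these 6 libraries alone the adjusted p was 0.051 (log2 -0.24). ESR1, the gene of the oestrogen receptor, read 0.557, 0.527 and 0.455 CPM against 0.178, 0.24 and 0.131 CPM (log2 1.48, SE 0.46, adjusted p 0.00804). MYC-ER values were above every parental one for this gene, at levels under 1 CPM in both lines. The sources used here do not say how a read from the fusion was assigned, so neither gene shows how much fusion transcript was made.

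Genes of the MYC and MAX network differed in both directions. MAX, which MYC binds to reach DNA, was not called (54.3 ± 0.44 against 54.9 ± 0.97 CPM). MXI1, a MAX partner that represses MYC target genes, was higher in MYC-ER at 74.1, 71.9 and 69.2 CPM against 24.1, 26.7 and 25.9 CPM (log2 1.49, SE 0.06, adjusted p 2.42e-15). MXD4, of the same repressor family, was higher at 172 ± 1.22 against 123 ± 11.5 CPM, whereas MXD3 was lower at 5.12 against 13.4 CPM. Of the 12 genes of this network that were tested, 6 were higher, 5 lower and 1 not called, with a median log2 difference of 0.11.

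Both lines carried the markers of basal mammary cells that MCF-10A is known for. KRT5, a basal keratin, did not pass the test (12352, 12799 and 12432 CPM against 13739, 11992 and 14121 CPM, log2 -0.08, adjusted p 0.351), but was called higher with GC content and length modelled (log2 0.20, adjusted p 0.0142) and against the mean of the 4 parental groups (log2 0.14, adjusted p 0.0459). TP63, the transcription factor of basal epithelium, was higher in MYC-ER at 141 ± 2.66 against 108 ± 28.5 CPM (log2 0.38, SE 0.11, adjusted p 0.00367), though not with only the 6 libraries at 0 h fitted (adjusted p 0.0779, and 0.124 with GC content modelled in them), nor against the mean of the 4 parental groups, from 0 to 48 h (adjusted p 0.195). The 13 basal markers summed to 18799 to 19187 CPM in MYC-ER and 27768 to 32927 CPM in parental libraries, with KRT14 and KRT17 making up most of the gap. The 15 luminal markers summed to 298 to 320 against 393 to 506 CPM. Of the 11 tested, 5 were higher, KRT8 among them (log2 1.15), and 5 lower. The milk protein genes CSN2 and CSN3 and the luminal regulators ELF5, KIT and PGR were at 0 in all 6 libraries. Fibroblast markers summed to 362 to 378 against 123 to 136 CPM, carried by COL1A1 and DCN, and the defining fibroblast genes COL1A2 and THY1 were at 0. Of the 5 tested 3 were higher and 1 lower, with FAP going against the sum (log2 -4.38). Endothelial markers summed to 36.1 to 41.0 against 2.15 to 2.88 CPM, with CDH5 and TIE1 at 0. In MYC-ER cells nearly all of the sum was KDR. In parental libraries KDR had 207, 265 and 164 counts and PECAM1 172, 184 and 182. PECAM1 had fewer in MYC-ER libraries (8, 28 and 23), and of the 5 endothelial markers tested 1 was higher and 2 lower. Immune markers summed to 59.7 to 63.9 against 43.4 to 43.6 CPM, with PTPRC, CD3E and NKG7 among the genes at 0. Of the 4 immune markers tested, 3 were higher and 1 lower.

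The largest single reductions came from several kinds of gene. Of the 12 most reduced genes with at least 10 CPM in parental cells, 7 work in replication or mitosis, namely MYBL2, PKMYT1, TK1, RRM2, BIRC5, UBE2C and HJURP. The ERK-driven genes DUSP6 and ETV4 were also among them, as were AMIGO2, a cell adhesion protein, NTSR1, the neurotensin receptor, and CHRNA9, a nicotinic receptor subunit. CHRNA9 stood at 0.116, 0.0567 and 0.0759 CPM in MYC-ER libraries and at 17.9, 20.7 and 19.2 CPM in parental ones (log2 -7.85, SE 0.18, adjusted p 1.7e-19). AMIGO2 stood at 0.0986, 0.0454 and 0.0701 CPM against 27.3, 29.1 and 27.1 CPM. Both genes were thus close to absent from MYC-ER cells and evenly present in the parental wells.

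The most raised genes included several secreted proteins. SERPINA3, the acute phase protease inhibitor antichymotrypsin, at chr14:94612377-94624055 (gene coordinates here and below are those of GENCODE 29, GRCh38), stood at 753, 760 and 853 CPM in MYC-ER cells and at 12.8, 12.2 and 12.2 CPM in parental cells (log2 5.99, SE 0.07, adjusted p 6.54e-23). CXCL14, a chemokine of epithelia, stood at 67.3, 58.3 and 58 CPM against 0.46, 0.583 and 0.779 CPM (log2 6.65, SE 0.18, adjusted p 5.17e-18). MME, the cell surface peptidase neprilysin (CD10) that marks myoepithelial cells, stood at 274, 278 and 262 CPM against 7.78, 8.98 and 6.06 CPM (log2 5.16, SE 0.15, adjusted p 1.83e-17). None of these values overlapped between lines. CYP3A5, a drug-metabolising cytochrome, stood at 13.8 ± 0.19 against 0.288 ± 0.03 CPM, and the elastic fibre protein gene FBLN5 at 50.5 against 1.41 CPM. CHI3L2, a chitinase-like secreted protein, GFPT2, an enzyme of hexosamine synthesis, MAP7D2, PPM1L and ABI3BP completed the list with SLC2A14 and KLHL38. SLC2A14 is nearly identical to SLC2A3, so reads may have been split between them and its value is uncertain, and KLHL38 had 0 counts in 2 of the 3 parental libraries.

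By absolute change in CPM the leading genes were different ones. TGFBI, a secreted matrix protein, was the nuclear gene that gained most, from 4368, 4142 and 4325 CPM in parental cells to 11418, 11614 and 11700 CPM in MYC-ER cells (log2 1.44, SE 0.06, adjusted p 3.88e-15). KRT10 and the elongation factor gene EEF1A1 also gained, as did the mitochondrial ribosomal RNA MT-RNR2 (16158 ± 976 against 5743 ± 1096 CPM) and MT-CO1 (25291 ± 1063 against 16063 ± 4033 CPM). The mitochondrial share of the libraries, lowest in parental replicate 1, moved with these last genes, and its part in the result was not tested. KRT14, S100A2, KRT6A, FTH1, ACTB and PKM lost most CPM in MYC-ER cells, of which FTH1, ACTB and KRT6A have near-identical copies and are uncertain.

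Mitosis was the list with the lowest median of the 33 examined. All 50 genes of the mitosis list were lower in MYC-ER cells, each by at least 2-fold, with a median log2 difference of -5.06, beside 32.7% called lower and a median of 0.00 over all genes tested. MKI67, the proliferation antigen Ki-67, stood at 1.65, 1.73 and 1.85 CPM in MYC-ER libraries and at 223, 229 and 174 CPM in parental ones (log2 -6.90, SE 0.10, adjusted p 1.38e-22). CDC20, an activator of the anaphase-promoting complex, stood at 0.922, 0.868 and 1.29 CPM against 153, 136 and 172 CPM (log2 -7.23, SE 0.12, adjusted p 8.26e-22). CCNB2, a mitotic cyclin, stood at 1.4, 1.33 and 1.54 CPM against 52.7, 49.3 and 57.9 CPM, and the mitotic kinase PLK1 at 2.42, 1.91 and 2.22 CPM against 94.1, 89.2 and 100.3 CPM. In each of these genes the MYC-ER values lay below all 12 parental libraries. FOXM1 and MYBL2, transcription factors that activate mitotic genes, were lower at 2.8 against 126 CPM and 0.543 against 101 CPM. The smallest differences in the list were those of SMC4 (log2 -1.06) and CKAP2 (log2 -1.23). In bulk RNA, fewer dividing cells and less of these transcripts per cell cannot be told apart.

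The DNA replication list moved the same way and less far. All 40 of its genes were lower in MYC-ER cells, 38 by at least 2-fold, with a median of -2.57. RRM2, the regulated subunit of ribonucleotide reductase, stood at 0.696, 0.868 and 1.03 CPM against 126, 154 and 143 CPM (log2 -7.35, SE 0.12, adjusted p 1.36e-21). MCM6, a subunit of the replicative helicase, stood at 10.5, 13 and 11.7 CPM against 75.2, 72.6 and 74.3 CPM (log2 -2.66, SE 0.08, adjusted p 1.19e-17). DTL, which directs destruction of the licensing factor CDT1, stood at 1.08, 1.31 and 1.14 CPM against 56.6, 67.9 and 57.4 CPM. These genes, too, showed no overlap between the lines, but members differed widely in the size of the difference. RRM1, the reductase subunit whose protein is stable through the cycle, had a log2 difference of -1.21, and the polymerase gene POLE one of -0.68 (71.6 ± 0.34 against 115 ± 11.9 CPM).

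Stretches of 160 bases before the transcription start show what these promoters hold (RefSeq, GRCh38.p14, 5′ to 3′ on the gene's strand). CDC20 (chr1:43358821-43358980, plus strand), MKI67 (chr10:128126424-128126583, minus), CCNB2 (chr15:59104986-59105145, plus) and PLK1 (chr16:23678729-23678888, plus) stand for mitosis, with capitals marking the CHR, TTTGAA, and the CCAAT box, CCAAT or its reverse complement ATTGG. MCM6 (chr2:135876444-135876603, minus) and DTL (chr1:212035588-212035747, plus) stand for replication, with capitals marking the E2F motif, TTTGGCGC or TTTCGCGC or their reverse complements.
CDC20: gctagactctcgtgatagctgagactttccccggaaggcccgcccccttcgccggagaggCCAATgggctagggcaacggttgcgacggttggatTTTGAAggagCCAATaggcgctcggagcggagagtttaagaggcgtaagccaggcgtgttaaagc
MKI67: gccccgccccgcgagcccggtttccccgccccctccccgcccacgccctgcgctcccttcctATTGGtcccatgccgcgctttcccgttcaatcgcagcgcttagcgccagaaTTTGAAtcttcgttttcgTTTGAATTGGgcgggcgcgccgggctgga
CCNB2: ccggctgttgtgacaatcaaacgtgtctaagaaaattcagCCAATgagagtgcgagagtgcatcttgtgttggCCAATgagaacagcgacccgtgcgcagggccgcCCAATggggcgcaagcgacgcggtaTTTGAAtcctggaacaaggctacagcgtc
PLK1: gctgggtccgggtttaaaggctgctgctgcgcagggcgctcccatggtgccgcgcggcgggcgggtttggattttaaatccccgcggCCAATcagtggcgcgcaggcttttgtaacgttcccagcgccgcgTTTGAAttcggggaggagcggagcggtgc
MCM6: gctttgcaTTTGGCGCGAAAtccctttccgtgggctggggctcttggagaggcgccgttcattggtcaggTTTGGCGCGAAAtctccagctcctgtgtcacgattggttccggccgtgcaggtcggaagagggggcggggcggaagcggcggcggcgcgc
DTL: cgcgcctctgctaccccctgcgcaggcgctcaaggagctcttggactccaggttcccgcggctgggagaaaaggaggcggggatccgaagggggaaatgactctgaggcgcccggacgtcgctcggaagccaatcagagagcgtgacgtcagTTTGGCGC
All 4 mitotic promoters held a CHR within 65 bases of the start and at least 1 CCAAT box. MKI67 held 2 CHR matches, the one nearer the start overlapping a CCAAT match. MCM6 held 4 E2F matches in 2 overlapping pairs, each pair forming TTTGGCGCGAAA, and DTL held 1 match, 8 bases before its start. The capitals mark letters only and show no binding.

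Over the lists, motifs were searched on both strands of the 250 bases before each RefSeq start. Of 51 windows for 43 mitosis genes, 25 (49%) held a CHR, 35 (68.6%) a CCAAT box and 20 (39.2%) both, against 13.3%, 32% and 4.69% of all 35116 windows. Of 47 windows for 36 replication genes, 8 (17%) held the E2F motif and 1 a CHR, against 0.968% and 13.3% of all windows. CCAAT boxes were in 29 (61.7%) of the replication windows, and in 18 of 23 windows (78.3%) of the sterol synthesis list. The CHR share was 11.3% in windows of the genes at least 2-fold lower and 10.7% in those at least 2-fold higher. Neither motif was particular to its list. In the complement and acute phase list 5 of 16 windows (31.2%) held a CHR and 4 (25%) held both CHR and CCAAT box. The E2F motif was in 3 of 13 windows (23.1%) of the list of G1 cyclins, kinases and activator E2Fs. BIRC5 had no window among those given.

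Upstream of replication, the cyclins and activator E2Fs were lower as well. Of 13 genes of the G1 to S transition 12 were lower and 0 higher, with a median log2 difference of -1.32. CCND1, cyclin D1, stood at 30.2, 28 and 26.9 CPM in MYC-ER cells and 161, 153 and 128 CPM in parental cells (log2 -2.38, SE 0.08, adjusted p 2.7e-16). E2F1 stood at 0.574 against 19.2 CPM and E2F2 at 0.204 against 12.7 CPM, while SKP2, which targets the inhibitor p27 for destruction, did not pass the test (log2 -0.13). SKP2 was called lower with GC content modelled (log2 -0.29, adjusted p 0.000695) and against the mean of the 4 parental groups (log2 -0.41, adjusted p 3.48e-05). Genes that hold cells out of the cycle were divided, 11 higher, 6 lower and 5 not called of 22, with a median of 0.10. CDKN1C, the inhibitor p57, was higher at 121, 100.5 and 106 CPM against 33, 23.3 and 32 CPM (log2 1.89, SE 0.10, adjusted p 4.2e-13). RBL2, the p130 subunit of DREAM, was higher at 128, 139 and 129 CPM against 49, 66.1 and 43.5 CPM (log2 1.32, SE 0.09, adjusted p 3.1e-11). Other members of the complex in the list differed in sign: E2F4 (log2 -0.69), E2F5 (log2 -1.22) and RBL1, the p107 subunit (log2 -0.85), were lower. LIN9 was higher (log2 0.26, but adjusted p 0.0834 with only the 6 libraries fitted), and LIN37, LIN52 and LIN54 were not called. LIN37 was lower without parental replicate 2 (log2 -0.37, adjusted p 0.00603). LIN54 was higher without that replicate (log2 0.28, adjusted p 0.0136) and lower with GC content and length modelled (log2 -0.39, adjusted p 9.47e-05). GAS1 and BTG1, growth arrest genes, stood at 35.5 against 4.13 CPM and 603 against 104 CPM. CDKN1A, the p53-induced inhibitor p21, was lower (234 ± 3.91 against 288 ± 22.1 CPM), but not once GC content and length were modelled (log2 0.01).

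**Figure D2:**
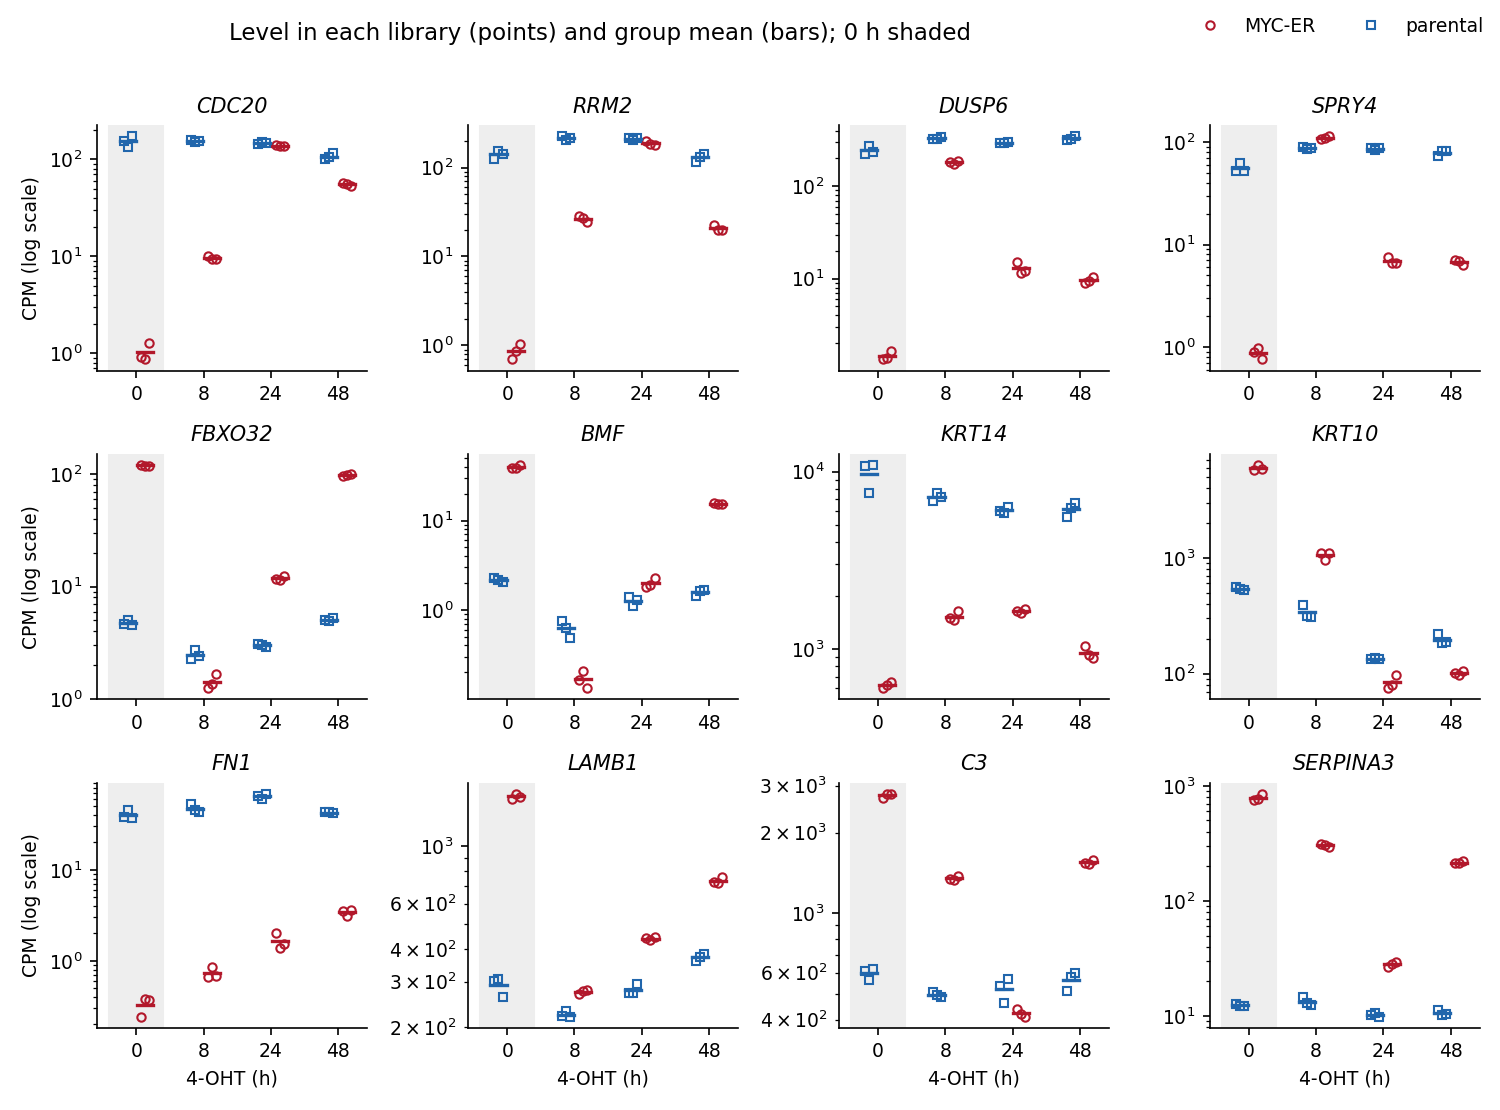
TMM-scaled CPM (log y axis) of 12 genes in each of the 24 libraries, by line and hours of 4-OHT (x axis), 1 point per library. At 0 h the MYC-ER points lie apart from the parental points in all 12 panels, below them for CDC20, RRM2, DUSP6, SPRY4, KRT14 and FN1 and above them for FBXO32, BMF, KRT10, LAMB1, C3 and SERPINA3.

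Growth genes were lower in MYC-ER cells, by smaller steps. Of 41 MYC targets in ribosome biogenesis and growth 37 were lower and 1 higher, with a median of -0.89. ODC1, the first enzyme of polyamine synthesis and a textbook MYC target, stood at 60.5, 65.2 and 65.7 CPM in MYC-ER cells and 498, 499 and 509 CPM in parental cells (log2 -2.98, SE 0.06, adjusted p 5.3e-20). NCL, nucleolin, stood at 522, 579 and 553 CPM against 1325, 1053 and 1123 CPM (log2 -1.08, SE 0.07, adjusted p 1.45e-11). The spermidine synthase gene SRM stood at 62.9 ± 1.83 against 194 ± 32.8 CPM and NME1, a nucleoside diphosphate kinase gene, at 43 ± 2.88 against 171 ± 32 CPM. The one member called higher was IMPDH2, of guanine nucleotide synthesis (log2 0.26, adjusted p 0.0776 with only the 6 libraries fitted), and TFRC, PPAT and APEX1 were not called. With GC content modelled TFRC (log2 -0.20, adjusted p 0.049) and PPAT (log2 -0.42, adjusted p 3.68e-07) were called lower and APEX1 higher (log2 0.16, adjusted p 0.0182). An E box, CACGTG, was in 9 of 45 promoter windows of this list (20%), in 6.34% of all windows and in 7.92% of those of genes tested. The share was not particular to this list: it was 22.7% in the lysosome and autophagy list and 20% in the BCL2 family list.

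Ribosomal protein genes did not share that drop. Of 42 cytosolic ribosomal protein genes 13 were called higher and 3 lower, with a median log2 difference of 0.06 and a range from RPL35 at -0.51 to RPS27 at 0.52. The share called higher, 31%, was near the 31.6% of all genes tested, and the share called lower, 7.14%, was below the 32.7% of all genes. The count of higher calls rested on the fit: it was 5 when GC content was modelled in the 6 libraries alone and 35 when the 0 h MYC-ER libraries were set against the mean of the 4 parental groups. Leaving out parental replicate 2 gave 8, and leaving out parental replicate 3 gave 22. Many of these genes have near-identical pseudogenes, which adds uncertainty to single values. Nuclear-encoded subunits of the respiratory chain were mostly lower by small amounts, 23 of 33, with 3 higher and a median of -0.41. NDUFB8, of complex I, had the largest difference at 35.6 against 83.9 CPM, and ATP5F1A, the ATP synthase subunit alpha, was not called (793 ± 24.0 against 796 ± 74.8 CPM), with values on either side of 0 in other settings (log2 -0.25 with GC content and length modelled and 0.20 against the mean of the 4 parental groups, adjusted p 0.00845 and 0.000478). Set beside the higher mitochondrial ribosomal RNA, nuclear and mitochondrial genes of this organelle differed in direction.

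Sterol synthesis and glycolysis were lower in MYC-ER cells. Of 23 genes of cholesterol synthesis and uptake 18 were lower and 1 higher, with a median of -1.02. HMGCS1, at the entry of the pathway, stood at 51.6, 56.1 and 52.2 CPM against 141, 170 and 128 CPM (log2 -1.46, SE 0.07, adjusted p 8.49e-14). IDI1, which isomerises the pathway's isoprenoid unit, stood at 48.4, 52.8 and 53.6 CPM against 145, 158 and 156 CPM (log2 -1.57, SE 0.05, adjusted p 1.88e-17). For both genes every MYC-ER value was below every parental one, and SREBF2, the factor that drives the pathway, was not called (log2 0.14). SREBF2 was called higher in other settings, at log2 0.18 with library size scaling alone (adjusted p 0.00949) and 0.31 with GC content modelled (adjusted p 0.000282). Of 24 glycolysis genes 20 were lower and 3 higher, with a median of -0.75. LDHA, lactate dehydrogenase A, and SLC16A3, the lactate exporter MCT4, had log2 differences of -2.02 and -1.89. HK2, a hexokinase, was not called (log2 0.21; 0.26 and adjusted p 0.0422 with GC content modelled), and the higher members were PFKM and the pair of near-identical glucose transporters SLC2A3 and SLC2A14.

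**Figure D3:**
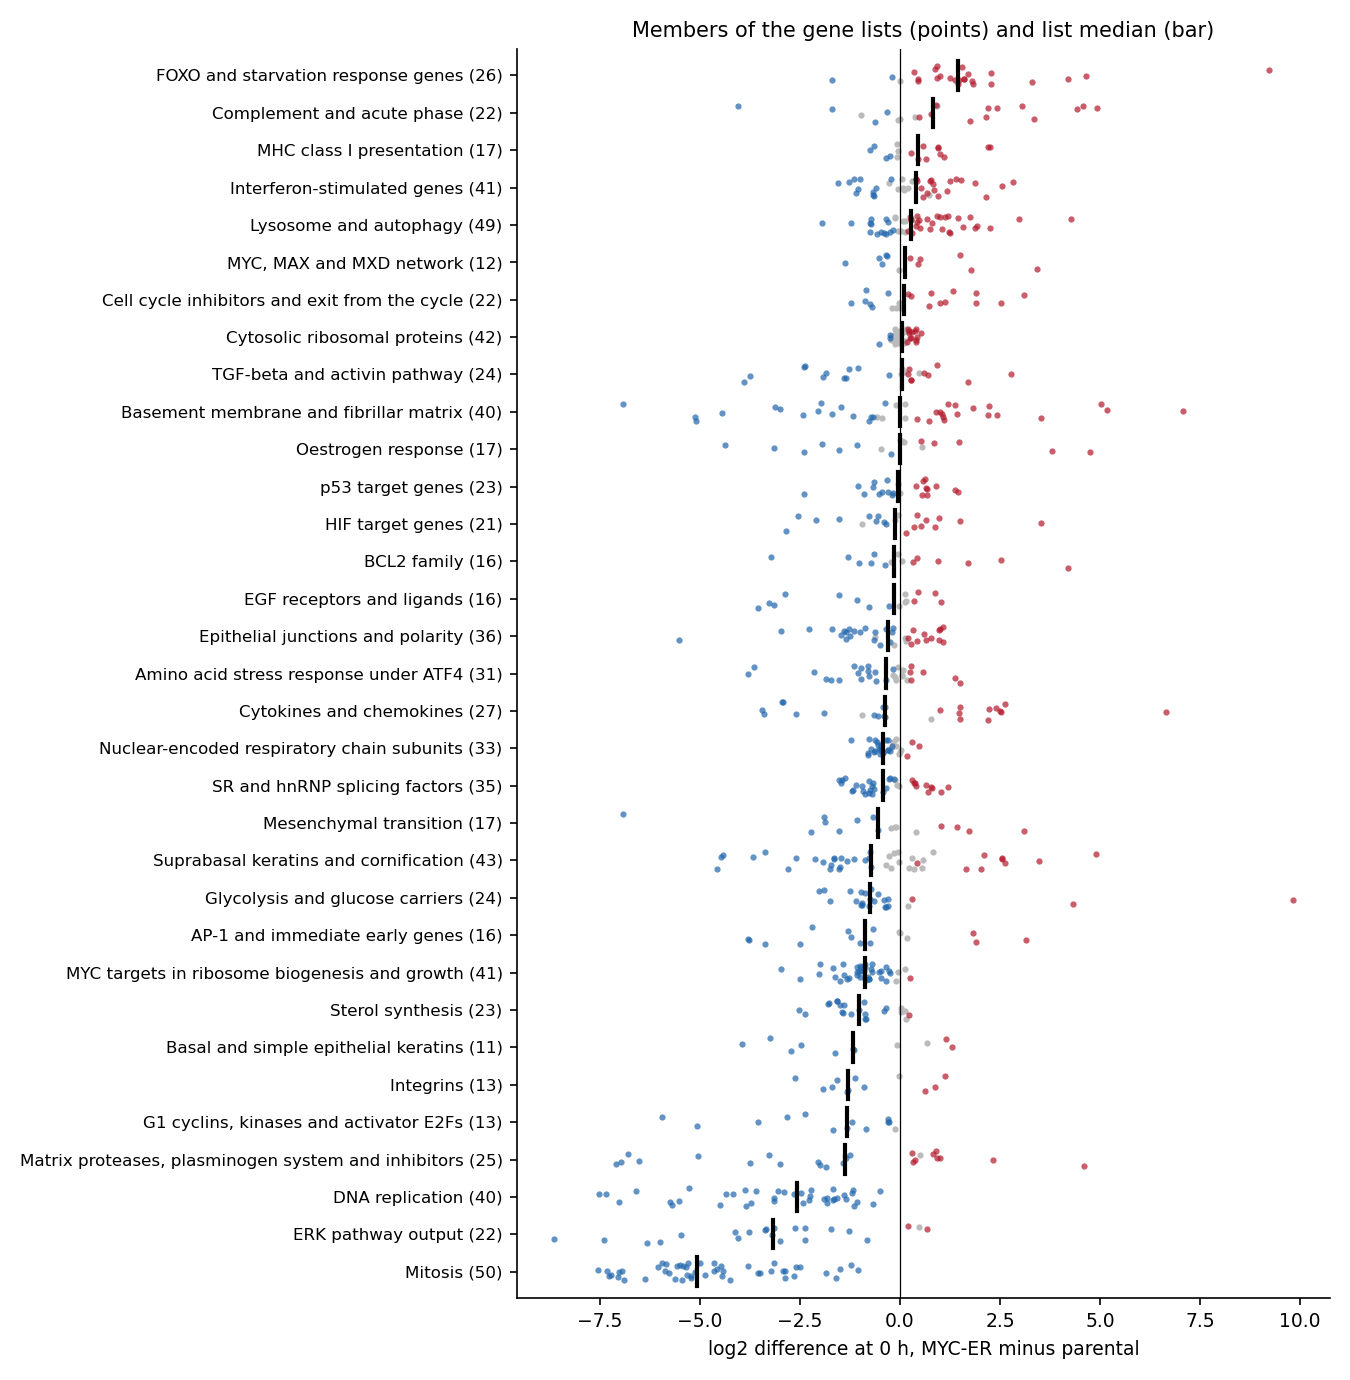
Log2 difference at 0 h (MYC-ER minus parental, x axis) of each tested member of the 33 gene lists (rows), with the list median as a bar and members at 0 counts in one line not drawn. The mitosis, ERK output and DNA replication medians lie farthest below 0 (-5.06, -3.17 and -2.57) and the FOXO median farthest above it (1.45).

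Genes that report ERK signalling had the second lowest list median. Of 22 such genes 19 were lower in MYC-ER cells, 18 of them by at least 2-fold, and 2 higher, with a median of -3.17. DUSP6, a phosphatase that ERK induces and that inactivates ERK in turn, at chr12:89347232-89353271, stood at 1.33, 1.37 and 1.66 CPM against 225, 275 and 234 CPM (log2 -7.39, SE 0.12, adjusted p 9.06e-22). SPRY4, another feedback inhibitor, stood at 0.887, 0.964 and 0.753 CPM against 52.8, 62.9 and 52.2 CPM (log2 -6.01, SE 0.10, adjusted p 5.71e-22). The ETS factors ETV4 and ETV5 stood at 0.0808 ± 0.03 against 32.6 ± 5.05 CPM and at 0.411 ± 0.01 against 33.2 ± 1.43 CPM. EGR1, an immediate early transcription factor, stood at 14.8, 13.5 and 13.5 CPM against 192, 202 and 181 CPM (log2 -3.78, SE 0.07, adjusted p 5.49e-21). For these 5 genes all 3 MYC-ER wells were low, with no overlap between lines. EPHA4 and MAFF were the members called higher, and both lost the call when only the 6 libraries were fitted (adjusted p 0.0555 and 0.101). The AP-1 motif TGACTCA was in 2 of 29 promoter windows of the list (6.9%) and in 4.2% of all windows. Its share was larger in other lists, such as suprabasal keratins and cornification (21.7%) and cytokines and chemokines (20.7%).

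AP-1 and other immediate early genes were more often lower than higher. Of 16 genes 10 were lower (62.5%) and 3 higher (18.8%), with a median of -0.88. EGR2 (log2 -3.81), NR4A1 (log2 -2.49), FOSB (log2 -2.21), IER2 (log2 -1.30), JUNB (log2 -0.74) and FOS (log2 -0.67) were among the lower ones. FOSL1, the ERK-dependent Fos family member, was lower at 5.59 against 58.4 CPM, while FOSL2 was higher at 683 against 184 CPM. ATF3, a stress-induced factor, stood at 6.77 against 0.76 CPM and KLF4 at 38.7 ± 2.04 against 10.9 ± 0.98 CPM, both higher, and JUN, JUND and KLF6 were not called. JUND (log2 -0.01) was called higher with GC content modelled (log2 0.30, adjusted p 0.0033), as was JUN (log2 0.35, adjusted p 0.000938), and KLF6 was called lower against the mean of the 4 parental groups (log2 -0.58, adjusted p 6.67e-08). EGF family ligands were lower in 7 cases: HBEGF (2.31 against 27.3 CPM), AREG (6.68 ± 0.73 against 59.2 ± 7.66 CPM), EREG (3.26 against 24.0 CPM), TGFA and NRG1 among them. EPGN, epigen, went the other way at 163 against 80.1 CPM. EGFR, their receptor, was higher in MYC-ER at 618 against 449 CPM (log2 0.46), but not when set against the mean of the 4 parental groups (log2 0.01), ERBB3 was higher too, and ERBB2 was not called (62.3 ± 3.31 against 62.9 ± 6.49 CPM; log2 0.17, adjusted p 0.0445, with GC content modelled). Of the 16 receptor, ligand and regulator genes of this family, 8 were lower and 4 higher.

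FOXO target and starvation genes were the list with the highest median, 1.45. Of 26 genes 23 were higher in MYC-ER cells, 16 of them by at least 2-fold, and 2 lower. FBXO32, the ubiquitin ligase atrogin-1, at chr8:123497889-123541206, stood at 120.4, 119 and 119 CPM against 4.65, 5.04 and 4.51 CPM (log2 4.65, SE 0.08, adjusted p 1.43e-21). BMF, a pro-apoptotic member of the BCL2 family known for cell death in mammary acini, stood at 39.2, 38.8 and 41.7 CPM against 2.28, 2.15 and 2.05 CPM (log2 4.21, SE 0.13, adjusted p 3.42e-17). The transcription factors themselves were higher: FOXO3 at 349 against 72.1 CPM, FOXO1 at 203 against 58.0 CPM and FOXO4 at 32.6 against 11.8 CPM. So were INSR and IRS2 of insulin signalling (log2 1.44 and 0.93) and PDK4, which turns off pyruvate dehydrogenase (log2 3.30). TRIB2 (log2 -1.71) and PIK3IP1 (log2 -0.21, adjusted p 0.0459) were the 2 genes called lower, the latter not when only the 6 libraries were fitted (adjusted p 0.181), and FOXO6 was not called. A forkhead motif, TGTTTAC, was in 2 of 32 promoter windows of the list (6.25%) and in 2.98% of all windows. Other lists had larger shares, such as cell cycle inhibitors (8.57%) and suprabasal keratins and cornification (6.52%).

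Beyond BMF, the BCL2 family had no common direction, 6 higher (37.5%) and 7 lower (43.8%) of 16. BCL2L11, the pro-apoptotic BIM gene, was higher at 65.3 against 20.1 CPM, and HRK, BBC3 and BID, of the same BH3-only kind, were higher too, BID not with only the 6 libraries fitted (adjusted p 0.0646). PMAIP1, the BH3-only gene NOXA, was lower (log2 -0.72), and the BH3-only genes BAD and BIK were not called. Both were higher with GC content and length modelled (log2 0.23 and 0.25, adjusted p 0.00168 and 0.0218). BAD was lower without parental replicate 2 (log2 -0.44, adjusted p 5.54e-07), so its direction rested on the fit. BCL2 was lower at 0.219 against 2.04 CPM, as were the effector genes BAX (39.0 against 61.8 CPM) and BAK1 (40.8 against 99.9 CPM). The survival gene MCL1 was not called (log2 0.06, adjusted p 0.418). MCL1 was higher without parental replicate 2 (log2 0.15, adjusted p 0.0295) and lower against the mean of the 4 parental groups (log2 -0.31, adjusted p 1.74e-05). BCL2A1 had 0 counts in the MYC-ER libraries and averaged 0.0321 CPM in the parental ones, too few for a fold. Of 49 lysosome and autophagy genes 28 were higher and 14 lower, with a median of 0.29. The higher ones included ULK1, the kinase that starts autophagy (132 ± 4.98 against 57.3 ± 3.05 CPM), the receptor SQSTM1 (948 ± 15.6 against 591 ± 63.6 CPM) and the cathepsin genes CTSF, CTSH and CTSO. LAMP1 (166 ± 2.77 against 278 ± 18.3 CPM) and CTSD (log2 -0.73) were lower, as was the glycosidase gene GLA (log2 -1.94). GPNMB, a lysosomal glycoprotein induced when lysosomes are stressed, had the largest difference of the list (log2 4.27).

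Stress and damage programmes did not move as units. The p53 target list split into 10 higher (43.5%) and 11 lower (47.8%) of 23, with a median of -0.04. SESN1 and TP53INP1 were higher (log2 1.36 and 1.44), and PLK3 and MDM2 lower (log2 -2.40 and -0.54). HIF targets split into 9 higher and 9 lower of 21 (42.9% each). LOX, a collagen cross-linking oxidase, was higher at 242 ± 6.08 against 21.1 ± 6.58 CPM, and ANGPTL4 was lower at 8.69 against 50.6 CPM. Genes of the amino acid response under ATF4 were more often lower, 17 of 31 with 6 higher and a median of -0.34. TRIB3 (8.16 against 113 CPM), PHGDH, the first enzyme of serine synthesis (0.968 against 12.1 CPM), and the cystine carrier SLC7A11 were lower, while DDIT3, the CHOP gene, was higher at 15.2 ± 0.76 against 5.88 ± 0.52 CPM.

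Keratin genes differed between the lines in both directions. KRT14, the partner of KRT5 in basal cells, at chr17:41582279-41586921, stood at 603, 624 and 650 CPM in MYC-ER cells and at 10725, 7571 and 10877 CPM in parental cells (log2 -3.96, SE 0.12, adjusted p 1.29e-17). KRT10, the keratin of suprabasal epidermis, at chr17:40818117-40822595, stood at 5722, 6316 and 5811 CPM against 563, 533 and 523 CPM (log2 3.46, SE 0.10, adjusted p 2.35e-17). KRT5 was not called, with the values given above. Of 11 basal and simple epithelial keratins 7 were lower and 2 higher, with a median of -1.18, the higher ones being KRT15 (815 against 331 CPM) and KRT8 (121 against 54.4 CPM). KRT8 and its partner KRT18 (log2 -1.63) therefore had opposite signs. KRT19 had 0 counts in 1 MYC-ER library and over 100 in the others, an unevenness seen in 57 genes at 0 h, so its value is uncertain.

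The wider cornification list was not raised with KRT10. Of 43 genes of suprabasal keratins and cornification 22 were lower and 9 higher, with a median of -0.74. KRT1, the partner of KRT10, was higher at 80.0 against 13.6 CPM, and so were the desmosomal cadherin gene DSG3 (log2 2.02) and KRT16 (3156 against 737 CPM). Also higher were RPTN (log2 4.89), KLK5 (log2 2.63), KLK7 (log2 2.54), SPRR3 (log2 1.65) and DSC2 (log2 0.43). IVL, involucrin, was lower at 0.472 against 10.1 CPM, SPRR1B, a small proline-rich envelope protein, at 8.37 against 185 CPM, and GRHL3, a transcription factor of barrier formation, at 1.55 against 37.2 CPM. S100A8 and S100A9, the calprotectin subunits, were lower too, at 61.2 ± 6.68 against 265 ± 55.4 CPM and 51.3 against 535 CPM. KRT1 and KRT10 thus had the opposite sign to IVL and SPRR1B, and KRT6A, KRT6B and KRT6C, near-identical copies whose reads may be shared, were all lower.

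Matrix genes had no common direction, also within 1 family. Of 40 matrix genes 18 were higher and 17 lower, 15 and 13 of them by at least 2-fold, with a median of 0.01. FN1, fibronectin, at chr2:215360440-215436172, stood at 0.244, 0.38 and 0.368 CPM in MYC-ER cells and at 38.3, 45.1 and 36.9 CPM in parental cells (log2 -6.92, SE 0.16, adjusted p 2.3e-19). TNC and THBS1 (5.53 against 121 CPM), matrix proteins of wounds, were lower with it, and COL6A3 had 0 counts in every MYC-ER library, at least 170-fold lower by a floor of 3 counts per library. LAMB1, the laminin beta 1 chain, at chr7:107923799-108003255, stood at 1521, 1591 and 1544 CPM against 302, 307 and 262 CPM (log2 2.42, SE 0.06, adjusted p 2.1e-19). LAMB3, the laminin beta 3 chain of epithelial basement membrane, was lower at 153, 154 and 159 CPM against 1385, 1069 and 1286 CPM (adjusted p 6.11e-18), and so was LAMA3 (log2 -0.39). LAMC1, LAMB2, COL4A5, COL4A6, NID1 and HSPG2, which build other laminins, collagen IV and their linkers, were higher, and COL4A1, COL4A2 and the laminin alpha 1 gene LAMA1 were lower. In collagen VI, COL6A1 (log2 2.21) and COL6A2 (log2 1.83) were higher, against the absence of COL6A3 counts. Summed fibroblast markers (362 to 378 against 123 to 136 CPM) moved with the higher matrix genes while COL1A2 and THY1 were at 0, and their part in the result was not tested.

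Proteases of matrix turnover were mostly lower. Of 25 genes for proteases, the plasminogen system and inhibitors 14 were lower and 9 higher, with a median of -1.39. MMP1, interstitial collagenase, stood at 0.052 against 7.23 CPM and MMP10, a stromelysin, at 0.025 against 2.35 CPM. PLAU (11.7 ± 0.36 against 48.2 ± 2.74 CPM), PLAT (31.5 ± 0.38 against 127 ± 2.70 CPM) and the receptor gene PLAUR (3.77 against 13.5 CPM) of plasminogen activation were lower together with SERPINE2, an inhibitor of such proteases. MMP7, matrilysin, was higher at 13.9 against 0.579 CPM, and TIMP3, a matrix-bound inhibitor, at 320 against 64.1 CPM, opposite to TIMP1 at 65.2 against 630 CPM.

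Of 13 integrin subunit genes 9 were lower and 3 higher, with a median of -1.31. ITGA6 and ITGB4, the laminin receptor of hemidesmosomes, and ITGA3, another laminin receptor subunit, had log2 differences of -1.32, -1.31 and -1.92. ITGB1, the most widely shared beta subunit, was higher (log2 0.86), as were ITGAV and ITGB8, which pair with each other, though not against the mean of the 4 parental groups (log2 0.01 and 0.30). COL17A1, the hemidesmosomal collagen, was higher at 3979 ± 71.2 against 2396 ± 78.6 CPM, so the parts of hemidesmosomes were not lowered together. Of 36 genes of junctions and polarity 20 were lower (55.6%) and 12 higher (33.3%), with a median of -0.30. GJB2, connexin 26, was lower at 2.76 against 128 CPM, and CLDN1, of tight junctions, at 5.14 against 24.9 CPM, while DSP, desmoplakin, was higher (log2 1.06). CDH1, E-cadherin, differed by only -0.19 on the log2 scale (139.8 against 159.8 CPM), a call that ended when only the 6 libraries were fitted (adjusted p 0.101).

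Mesenchymal genes showed no common direction, 4 higher and 9 lower of 17. The factors ZEB2 (35.9 against 4.18 CPM), TWIST1 (23.6 ± 1.91 against 7.13 ± 0.57 CPM) and SNAI2 (205 ± 2.04 against 101 ± 4.88 CPM) were higher. Their relatives SNAI1 (log2 -2.22) and TWIST2 (log2 -1.07) were lower, as were the factors FOXC2 and PRRX1. FN1, TAGLN and CDH2 were lower too. VIM was not called (log2 -0.22, adjusted p 0.0973), but was called lower against the mean of the 4 parental groups (log2 -0.71, adjusted p 1.03e-06). In the TGF-beta and activin list 9 were higher (37.5%) and 11 lower (45.8%) of 24, with a median of 0.04. The members called higher included the receptors TGFBR3 (141 against 20.5 CPM), TGFBR2 and ACVR2B and the transducer SMAD4, while the transducer SMAD3 was not called (log2 0.06). SMAD3 was higher without parental replicate 2 (log2 0.13, adjusted p 0.0341) and lower against the mean of the 4 parental groups (log2 -0.31, adjusted p 6.68e-06). The ligands TGFB1 and INHBA and the feedback genes PMEPA1, BAMBI and SKIL, which the pathway induces, were among those called lower, with PMEPA1 at 12.5 ± 0.66 against 66.6 ± 3.90 CPM.

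Complement and acute phase genes were more often higher than lower in MYC-ER cells. Of 22 genes 12 were higher, 9 of them by at least 2-fold, and 4 lower, with a median of 0.83. C3, the central complement component, at chr19:6677704-6730562, stood at 2696, 2797 and 2793 CPM against 609, 562 and 621 CPM (log2 2.21, SE 0.07, adjusted p 3.26e-17). C1R and C1S, the proteases that start the classical pathway, stood at 107 against 3.49 CPM and 24.9 ± 1.40 against 1.15 ± 0.08 CPM, and CFB, of the alternative pathway, at 112 against 11.1 CPM. SAA1 and SAA2, acute phase apolipoproteins that are near-identical copies, had log2 differences of 2.14 and 2.41. PI3 (6.33 against 105 CPM) and SLPI (log2 -1.70), elastase inhibitors of epithelia, were lower, and CD55, which limits complement on the cell surface, was not called.

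Of 41 interferon-stimulated genes 19 were higher (46.3%) and 12 lower (29.3%), beside 31.6% and 32.7% of all genes tested. They did not move as a block, and their median was 0.41 (0.30 with genes at 0 counts set to their floor). IRF1 (34.0 ± 0.97 against 12.8 ± 1.09 CPM), GBP2 (50.9 ± 2.65 against 11.5 ± 0.75 CPM) and TRIM22 were higher, and OAS1, OAS2 and OAS3 lower. In the list of antigen presentation by MHC class I 10 of 17 were higher (58.8%) and 4 lower (23.5%), with a median of 0.45. The peptide transporter gene TAP1 (134 ± 2.42 against 62.6 ± 4.34 CPM), the immunoproteasome gene PSMB9 (9.01 ± 0.32 against 1.96 ± 0.20 CPM), ERAP1 and B2M were higher. HLA genes have near-identical copies and differ between alleles, so their single values are uncertain. Of 27 cytokine and chemokine genes 11 were higher (40.7%) and 13 lower (48.1%). CXCL14, CXCL1 (12.6 ± 0.64 against 4.45 ± 0.33 CPM) and CXCL2 were among the former, and CXCL8 (0.194 ± 0.05 against 2.12 ± 0.30 CPM), IL33, CSF3 and IL1RN among the latter.

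Splicing factors were lower for 22 of 35 genes and higher for 10, with a median of -0.42. HNRNPA2B1 stood at 408 ± 18.9 against 1121 ± 72.4 CPM and SRSF3 at 98.5 against 285 CPM, whereas MBNL1, MBNL2 and RBFOX2, regulators known from differentiated tissues, were higher. ESRP2, an epithelial splicing regulator, was lower (log2 -1.48). Of 17 oestrogen response genes 5 were higher and 7 lower, with a median of 0.01. GREB1, a textbook oestrogen receptor target, was higher at 50.3 against 3.58 CPM, while MYB and AREG were lower, and PGR, TFF1 and TFF3 did not have enough counts to be tested.

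The line difference was then read in the wells that received 4-OHT for 8, 24 and 48 h, which share no library with the 0 h contrast. Between lines 10766 genes (48.6%) passed the test at 8 h, 10936 (49.4%) after 24 h and 12567 (56.7%) after 48 h. Of the 14244 genes called at 0 h, 4840 (34%) were called with the same sign at 8 h, 5410 (38%) after 24 h and 8511 (59.8%) after 48 h. With the opposite sign there were 3410, 3044 and 1262. Only 1798 (12.6%) kept their sign and call at all 3 later times. Across genes, the 0 h difference correlated with that at 8, 24 and 48 h with a Spearman coefficient of 0.190, 0.270 and 0.607, given as a description over genes that are not independent. Of the 3 later times, 48 h was the one with most genes of the same sign.

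Lists differed in how long their 0 h pattern was seen. In order of time (8, 24, 48 h), the mitosis median was -3.96, 0.30 and -1.03, and that of DNA replication -1.60, 0.29 and -1.31. The MYC targets had medians of 0.54, 0.17 and -0.72, so their values changed side after 4-OHT and were below 0 again at the last time. The ERK output median was 0.04, -1.41 and -1.75, and that of FOXO genes -0.12, 0.33 and 0.77. DUSP6 had log2 differences of -0.86, -4.50 and -5.10, and FBXO32 of -0.79, 1.98 and 4.27. The complement median was 0.68, -0.09 and 1.59. KRT14 stayed lower at every time (log2 -2.24, -1.89 and -2.70), as did FN1 (log2 -6.01, -5.31 and -3.64), while KRT10 changed sign at 24 h (log2 1.63, -0.67 and -0.96). SERPINA3 and CXCL14 stayed higher, the latter with log2 differences of 2.90, 4.47 and 5.18. Among genes at 1 CPM or more, 55 differed by at least 4-fold in 1 direction at all 4 times, 37 lower and 18 higher. The parental wells at these times also received 4-OHT, so each difference holds the response of both lines.

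**Figure D4:**
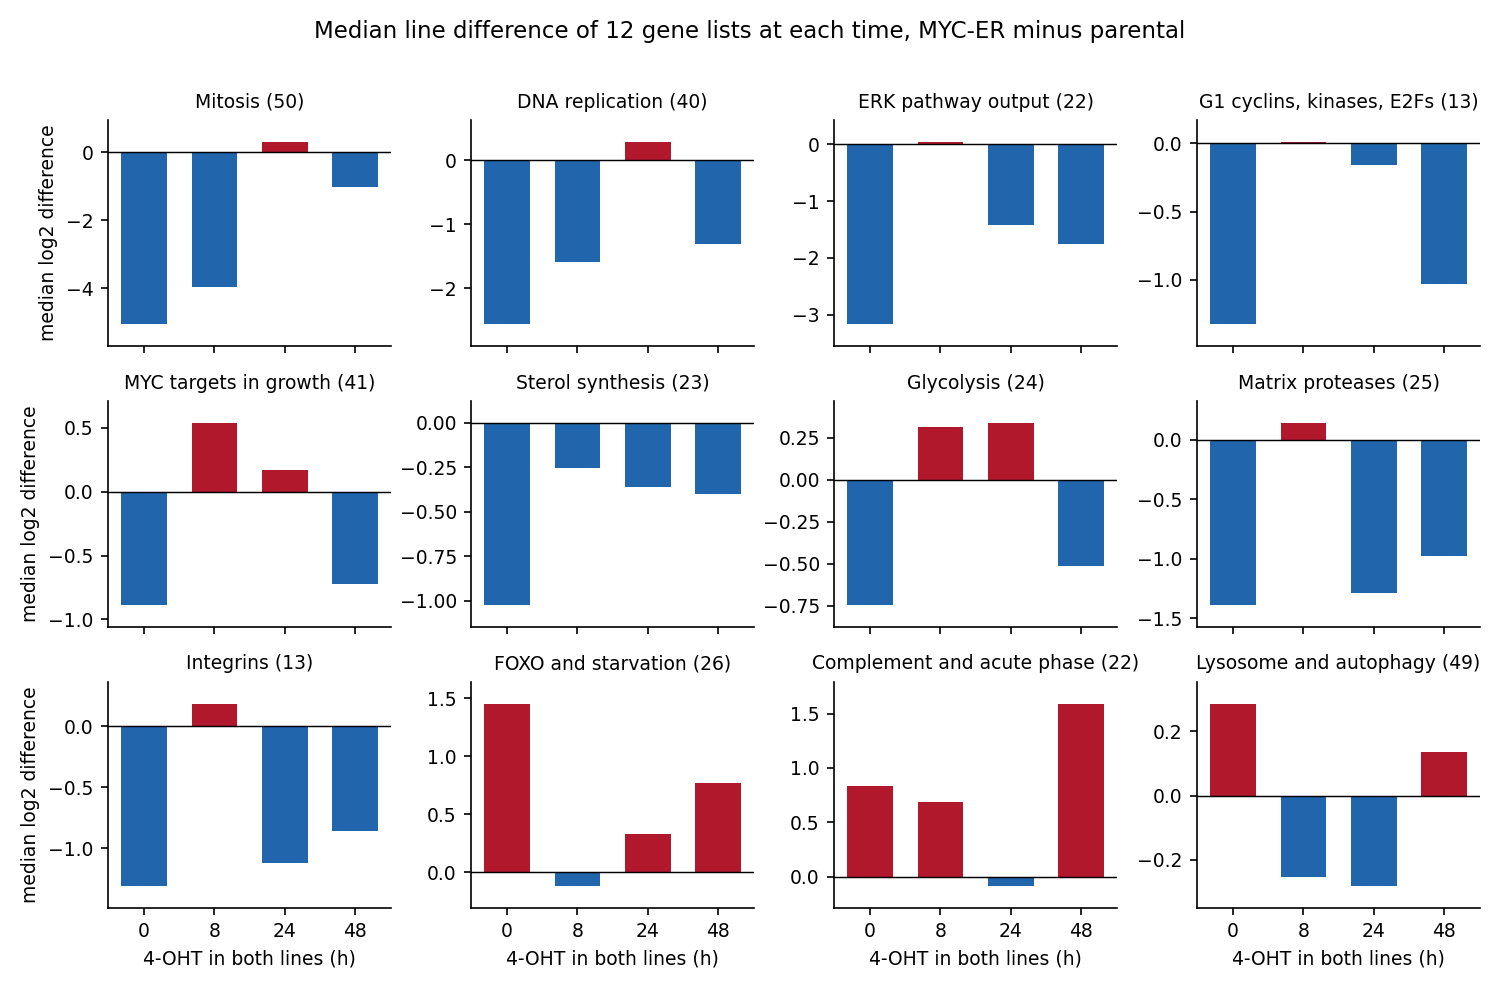
Median log2 difference (MYC-ER minus parental, y axis, scale differs between panels) of 12 gene lists at 0, 8, 24 and 48 h of 4-OHT (x axis), red above 0 and blue below, with the number of genes tested in brackets. The mitosis and replication medians are lowest at 0 h (-5.06 and -2.57) and 0.30 and 0.29 at 24 h, and the FOXO median is highest at 0 h (1.45).

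Chromosomes were compared by the median of the signed log2 difference, which does not show how many genes were called on each. Medians over the genes of 23 chromosomes lay between -0.17 and 0.15, and that of the 37 tested mitochondrial genes was 0.65. In 299 windows of 10 Mb with at least 10 tested genes the median ranged from -0.52 to 0.90, with 17 windows beyond 0.5 in either direction and 0 beyond it at all 4 times. Across 9784 genes at 10 CPM or more, the 0 h difference had a rank correlation of -0.258 with GC content and 0.381 with transcript length in GENCODE 29. With both trends modelled, 14389 genes were called, against 14244 without.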

How the data were processed

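Poly(A)-selected, stranded RNA-seq libraries (150 nt paired reads, per the labels' protocols) were deposited as 1 table of counts per gene and library, which the authors made from their reads. The submitters' processing notes name Trimmomatic 0.39, STAR, StringTie 2.1.3b and the build GRCh38, without role or order. If StringTie made the whole-number counts they are estimates from coverage, and which program counted is not given in the sources used here.

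Counts were tested as deposited with edgeR 4.0.16 in R 4.3.3: genes kept by filterByExpr, TMM scaling, 1 mean per group over 8 groups of 3, and the quasi-likelihood F test of the MYC-ER minus parental contrast at 0 h, two-sided, with Benjamini-Hochberg adjustment over all 22158 genes tested at a threshold of 0.05. Fitting all 24 libraries shares 1 estimate of the spread over 16 residual degrees of freedom (common biological coefficient of variation 0.151). The standard error is the log2 difference divided by the root of F. CPM are TMM-scaled, mean ± SD has n = 3, and depth is 168119848 to 182438505 counts per library. The rule for named genes took the 12 largest positive and the 12 largest negative log2 differences at 10 CPM or more in the higher line without overlap, the 6 largest gains and losses in CPM, genes at most 3 counts in every library of one line and at least 1 CPM in every library of the other (0 found), members of 33 gene lists and 5 marker lists, MYC and ESR1. The comparison, the members and the lists were chosen with earlier results of these data known, so list counts and medians are descriptions and carry no set test.

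Gene names, positions, GC content and length come from GENCODE 29, and promoter sequences from RefSeq (GRCh38.p14), with 27305 symbols in 35116 windows. A few genes of these lists are counted but not reported singly here. The fitting script was tested on simulated data. Replicate numbers were not used to pair the samples in the fit reported. The deviations of same-numbered libraries of the lines correlated with 0.031, 0.422 and 0.246, and those of differently numbered ones with -0.33 to 0.176. For each MYC-ER library the same-numbered parental library had the highest value. Replicate number enters only the replicate block among the alternatives. Alternatives covered scaling, the filter, the test (DESeq2 1.42.0), the libraries fitted, the replicate block, GC content and length, mitochondrial genes and the parental reference.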

Additional observations from a re-analysis of the deposited data

Results flagged for a closer look

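The line difference at a later time was tested against that at 0 h in the same edgeR model (Benjamini-Hochberg over all genes), and it differed for 12227 genes at 8 h (55.2% of those tested), 12071 at 24 h (54.5%) and 9970 at 48 h (45%). Among the genes with the largest differences, those below were called at 0 h and called with the opposite sign at a later time.

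Some genes of replication and mitosis that were lower in MYC-ER cells before 4-OHT were slightly higher at 24 h. The log2 difference at 24 h was 0.41 for PKMYT1, 0.25 for TK1, 0.75 for BIRC5 and 0.36 for UBE2C. NTSR1, the neurotensin receptor, was lower at 0 h and higher at 8 h, with a log2 difference of 1.00.

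Genes raised at 0 h that were lower at 24 h were GFPT2 (log2 -0.49), FBLN5 (log2 -0.48), KRT10 (log2 -0.67 at 24 h and -0.96 at 48 h) and ENSG00000112096.18 (log2 -0.52). The last is 1 of 2 rows that GENCODE 29 names SOD2, so its value is uncertain. The mitochondrial ribosomal RNA MT-RNR2 was lower at 8 h (log2 -0.39). FTH1, ferritin heavy chain, was lower at 0 h and higher at 48 h (log2 0.38).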

How the results depend on the processing

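Over the alternative settings the number of genes called at 0 h ranged from 12193 (only the 6 libraries fitted) to 15366 (mean of the 4 parental groups), and from 13466 to 14531 when 1 library at a time was left out. The replicate block gave 14137 calls in 24 libraries and 12276 in 6. The number at least 2-fold moved to 4204 when 10 counts were required in every library, where fewer genes were tested. Among gene lists, ribosomal proteins called higher numbered 7 with only the 6 libraries, 7 with the replicate block in those libraries, 8 to 22 with 1 library left out, 21 with GC and length trends removed, 35 against the mean of the 4 parental groups and 5 with the GC trend removed in the 6 libraries. The p53 targets called lower were 7 with both trends removed in the 6 libraries, and proteases called lower were 9 with 10 counts required in every library. Of genes called with 1 sign at all 4 times, 1000 were at least 2-fold at 0 h. Of 5518 pairs of a named gene and a setting (264 genes), 5380 kept their side of the threshold and, where called, their direction. Calls were lost in at least 1 setting for 16 genes, and 20 genes that were not called were called in at least 1 setting. Signs turned, with a call in either fit, in 21 pairs. Against the mean of the 4 parental groups they were ATP5F1A (log2 0.20), JUND (0.44), KRT5 (0.14), BIK (0.34), MAFF (-0.15), MCL1 (-0.31), LIN54 (-0.50) and SMAD3 (-0.31). With GC and length trends removed they were CDKN1A (log2 0.014, not called), JUND (0.45), KRT5 (0.20), BAD (0.23), BIK (0.25) and LIN54 (-0.39). With both trends removed in the 6 libraries they were JUND (log2 0.44), KRT5 (0.19), BAD (0.20) and LIN54 (-0.39). With the GC trend removed they were ERBB2 (log2 0.17) and JUND (0.30, and 0.28 in the 6 libraries). Of these genes, CDKN1A and MAFF were called in the fit reported. The cause was not tested. The settings with only the 6 libraries and a trend removed were chosen after seeing the data.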
